A study of Mus musculus with 6 samples.

Results

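The genes examined here are Gm15511, Gm26532, Taco1, Rnf43, Slc15a2 and Snhg6, 6 of the 32285 genes counted in this single-cell RNA sequencing series of mouse cells. They were chosen by their summed counts in CD8+ T cells, which differed strongly between 2 libraries. Gm15511 and Gm26532 were among the highest ratios, and Taco1 and Rnf43 among the lowest, of the 2DG plus anti-PD-L1 library relative to the anti-PD-L1 library. Slc15a2 was among the lowest and Snhg6 among the highest of the 2FF plus anti-PD-L1 library relative to the same one. Because those T cell ratios chose the genes, they are given as a description. The values that the choice did not use are those of the other cell classes of the same libraries and those of the other libraries, and the question asked of them is whether a gene shifted in every class of a library or in T cells.

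The study profiled cells of orthotopic KPCA tumors, from a mouse ovarian cancer line whose homologous recombination is intact, grown in female C57BL/6 mice of 6 to 8 weeks. Each of the 6 libraries came from 1 mouse, and the groups were control (solvent and rat IgG), 2DG (the glucose analog 2-deoxyglucose), 2FF (2-fluoro-fucose, an inhibitor of fucosylation), anti-PD-L1 (an antibody that blocks a checkpoint ligand), and the antibody combined with either agent, named 2DG plus anti-PD-L1 and, for the other, 2FF plus anti-PD-L1. All mice carried the tumor, and in the 2FF groups the tumor cells were also pretreated before injection. The deposited labels instead name lymph node as the tissue and speak of young and aged mice, while both sources give the same 6 groups. The labels write 2FF out as 2F-Peracetyl-Fucose, and the study as 2-fluoro-L-fucose. Comparisons for either agent share the same control and the same anti-PD-L1 library. With 1 library per group, a treatment cannot be told apart from the mouse or the preparation, no test between treatments was possible, and every interval below covers counting error only.

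The libraries held 61860000 to 73890000 UMIs (unique molecular identifiers, each 1 captured RNA molecule), and 7703 to 9222 cells per library passed the limits of at least 250 genes and at most 5% mitochondrial UMIs. Cells were assigned to classes by markers, and 69.2 to 74.5% of them received a class. T-like cells numbered 388 in the control library and 1881 to 2966 in the others, with median depths of 5691 to 7475 UMIs. In them the summed T cell markers lay at 3103 to 4377 CPM (a gene's UMIs per 1000000 UMIs of the class), those of B cells at 5.13 to 17.3, of NK cells at 85.2 to 185.5, of macrophages at 42.0 to 79.0, of granulocytes at 12.5 to 196.4 and of monocytes at 270.2 to 414.7 CPM. The part of such RNA of other cells in the results was not tested. B-like cells made up 1.02 to 6.32% of the assigned cells, and granulocyte-like cells 47.1% in the control library against 3.65 to 6.64% in the others. Mitochondrial UMIs took 1.87 to 2.26% of the T-like total, ribosomal protein genes 9.50 to 11.8% and 20 dissociation and stress genes 0.741 to 0.947%. Any 2 libraries shared 12 to 27 cell barcodes, at most 0.320% of a library.

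The 6 genes have no common function. Taco1 encodes the translational activator of subunit I of mitochondrial cytochrome c oxidase, the last complex of the respiratory chain. Rnf43 encodes a membrane ubiquitin ligase that removes Frizzled receptors from the cell surface and so dampens Wnt signalling. Slc15a2 encodes PEPT2, a proton-coupled transporter of short peptides and peptide-like molecules. Snhg6 is the spliced host transcript of a small nucleolar RNA, and such host RNAs are usually short-lived. Gm15511 and Gm26532 are long noncoding RNAs of unknown function.

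In the GENCODE M21 annotation of GRCm38, the assembly of the files, the genes lie on 5 chromosomes. Taco1 (ENSMUSG00000001983, chr11:106066061-106073612, plus strand) and Rnf43 (ENSMUSG00000034177, chr11:87662722-87735539, plus strand) share chromosome 11. Slc15a2 (ENSMUSG00000022899) lies at chr16:36750177-36784962 on the minus strand and Snhg6 (ENSMUSG00000098234) at chr1:9941959-9944118 on the minus strand, with Snord87 in an intron. Gm15511 (ENSMUSG00000086648, chr9:69348889-69364247, minus strand) runs antisense within Rora, a nuclear receptor gene of lymphoid cells, and exons of both overlap. Gm26532 (ENSMUSG00000097296, chr8:84208920-84209609, plus strand) overlaps the last 2 bases of the hairpin Mir24-2 and follows Mir23a and Mir27a, whose hairpins start 402 and 248 bases before it on the same strand. Exons on the opposite strand also overlap for Taco1 (Taco1os) and Snhg6 (Mcmdc2). Whether reads were counted by strand is not given in the sources used here, and the part of such partners in the counts was not tested.

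RefSeq promoter windows, from 250 bases before to 50 after the start, were at hand for 4 of the genes. Those of Taco1 and Rnf43 are shown because both genes were lower in the same library, that of Slc15a2 because it was lower in both combination libraries, and that of Gm15511 because its RNA was found almost wholly in T-like cells. Capitals mark matches on either strand to the Sp1-type box GGGCGG or to CCAAT, 2 motifs that do not overlap here. The windows are those of GRCm38.p6, each written 5′ to 3′ on the gene's strand.
Taco1 (chr11:106065841-106066140, plus strand): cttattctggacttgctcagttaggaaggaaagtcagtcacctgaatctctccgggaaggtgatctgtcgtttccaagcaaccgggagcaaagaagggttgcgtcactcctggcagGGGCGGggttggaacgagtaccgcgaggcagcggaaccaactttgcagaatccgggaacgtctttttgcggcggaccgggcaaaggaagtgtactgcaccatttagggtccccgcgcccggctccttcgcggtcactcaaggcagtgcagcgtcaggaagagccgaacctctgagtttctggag
Rnf43 (chr11:87662837-87663136, plus strand): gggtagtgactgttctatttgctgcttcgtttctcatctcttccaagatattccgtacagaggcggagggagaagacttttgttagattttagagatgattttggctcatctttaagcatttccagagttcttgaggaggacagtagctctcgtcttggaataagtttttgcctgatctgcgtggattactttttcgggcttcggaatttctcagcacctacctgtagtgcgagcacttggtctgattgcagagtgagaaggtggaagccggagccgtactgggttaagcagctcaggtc
Slc15a2 (chr16:36784913-36785212, minus strand): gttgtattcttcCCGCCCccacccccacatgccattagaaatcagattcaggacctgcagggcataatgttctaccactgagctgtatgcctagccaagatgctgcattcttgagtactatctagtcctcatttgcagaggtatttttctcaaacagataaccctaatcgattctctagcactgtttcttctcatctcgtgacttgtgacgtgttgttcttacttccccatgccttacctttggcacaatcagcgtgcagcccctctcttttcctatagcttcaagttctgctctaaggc
Gm15511 (chr9:69364198-69364497, minus strand): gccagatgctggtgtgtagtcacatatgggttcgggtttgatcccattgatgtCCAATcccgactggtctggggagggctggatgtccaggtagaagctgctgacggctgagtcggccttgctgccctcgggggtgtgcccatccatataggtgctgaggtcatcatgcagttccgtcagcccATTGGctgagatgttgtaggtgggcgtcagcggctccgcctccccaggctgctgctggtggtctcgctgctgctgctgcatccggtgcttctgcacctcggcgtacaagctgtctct

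GGGCGG was present in the Taco1 and Slc15a2 windows and in 35.7% of all 32851 promoter windows of that length. CCAAT was present in the Gm15511 window and in 37.4% of all windows. TATAAA (13.6% of all windows) and the E-box CACGTG (7.15%) matched none of the 4 windows shown, and the Rnf43 window held no match to any of the 4 motifs. Rnf43 has another window in the table, at chr11:87699647-87699946, which held none either and had a GC content of 44.3%. The window shown is the upstream one, nearest the annotated start of the gene, and its GC content was 46.7%, against 57.7% for Taco1, 46.3% for Slc15a2, 60.3% for Gm15511 and a median of 52.7% over all windows. Taco1 and Rnf43 thus shared no motif among those searched, and these matches are descriptions of the letters only.

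For each comparison the ratio is the log2 ratio of CPM plus 5 between 2 libraries within a class, with a 95% counting interval, and a gene counts as past 2-fold at 1 or more on the log2 scale, in either direction, if it has at least 50 UMIs in both libraries together. This is a limit of size, not a test. Counts of classes past it include T-like cells, whose ratios are tied to the choice of the genes. Differences between the T-like ratio and that of another class are descriptions too, since the choice of the genes favoured T cell ratios far from 0, and their intervals cover counting error only. For 2DG plus anti-PD-L1 relative to anti-PD-L1, 0.335% of 12239 genes in T-like cells were at least 2-fold higher and 0.163% at least 2-fold lower. In the 6 other classes compared, summed and called gated non-T cells (NK-like, B-like, dendritic-like, granulocyte-like, monocyte-like and macrophage-like), the shares were 0.342% and 0.335% of 13152 genes. For 2FF plus anti-PD-L1 relative to anti-PD-L1 they were 0.157% higher and 0.0744% lower of 12100 genes in T-like cells, and 0.343% and 0.213% of 13119 genes in gated non-T cells. By single class, with 2DG plus anti-PD-L1, the shares ran from 0.335% (T-like) to 3.43% (granulocyte-like) higher. Those lower ran from 0.163% (T-like) to 1.94% (granulocyte-like). With 2FF plus anti-PD-L1 they ran, between the same classes, from 0.157% to 2.15% higher and from 0.0744% to 1.10% lower. Shifts past 2-fold in each of 7 classes were rarer still. Among 3343 genes with enough UMIs in all 7 classes, 0.0897% were higher and 0.0299% lower in each class with 2DG plus anti-PD-L1, and among 3370 genes 0.0890% and 0.0297% with 2FF plus anti-PD-L1.

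Taco1 was lower in the 2DG plus anti-PD-L1 library than in the anti-PD-L1 library in every class with enough UMIs. The T-like levels were 35.2 CPM in control, 50.01 in 2DG, 20.95 in 2FF, 54.1 in anti-PD-L1, 14.4 in 2DG plus anti-PD-L1 and 33.3 in 2FF plus anti-PD-L1. The anti-PD-L1 and 2DG levels at the top had overlapping intervals, as did control and 2FF plus anti-PD-L1, while 2FF and then 2DG plus anti-PD-L1 lay below. Relative to anti-PD-L1, the log2 ratio with 2DG plus anti-PD-L1 was -1.61 (-1.76 to -1.45) in T-like cells, the fifth lowest of 12239 genes. It was -1.72 in NK-like, -2.16 in B-like, -1.63 in dendritic-like, -1.45 in monocyte-like and -1.69 in macrophage-like cells, so 6 of 6 classes with enough UMIs were past 2-fold. Granulocyte-like cells gave -1.22 (-2.05 to -0.39) on 31 UMIs. A Taco1 UMI was seen in 25.3% of T-like and 25.4% of monocyte-like cells with anti-PD-L1 alone, against 8.40% and 9.06% when 2DG was added.

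The Taco1 ratio in T-like cells minus that in gated non-T cells was -0.05 (-0.25 to 0.15). Set against single classes, the interval of this difference left out 0, among classes with enough UMIs, only for B-like cells, at 0.55 (0.08 to 1.03), where Taco1 was lower still. The order of libraries was also much alike among classes: 2DG plus anti-PD-L1 had the lowest Taco1 level in 6 of 7 classes (2FF in granulocyte-like cells), and anti-PD-L1 the highest in 5 of 7 (2DG in NK-like and granulocyte-like cells). The ratio with 2FF plus anti-PD-L1 was -0.63 (-0.76 to -0.49) in T-like cells and -0.67 (-0.77 to -0.56) in gated non-T cells, and only dendritic-like cells passed 2-fold, at -1.04.

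Among 16984 genes, those whose levels over 42 class-by-library points were most like those of Taco1 included Camk1d (Pearson r 0.88) and Lars2 (0.86). Classes of one library share a mouse, a preparation and a depth, and the control NK-like point rests on 17 cells, so these correlations are descriptions. Camk1d, a calcium-dependent kinase gene, lay at 2965 CPM in T-like cells of the anti-PD-L1 library and at 1272 with 2DG plus anti-PD-L1. Lars2, the mitochondrial leucyl-tRNA synthetase gene, lay at 1201 and 532 CPM. Both were lowest in the 2DG plus anti-PD-L1 library, as Taco1 was.

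**Figure D1:**
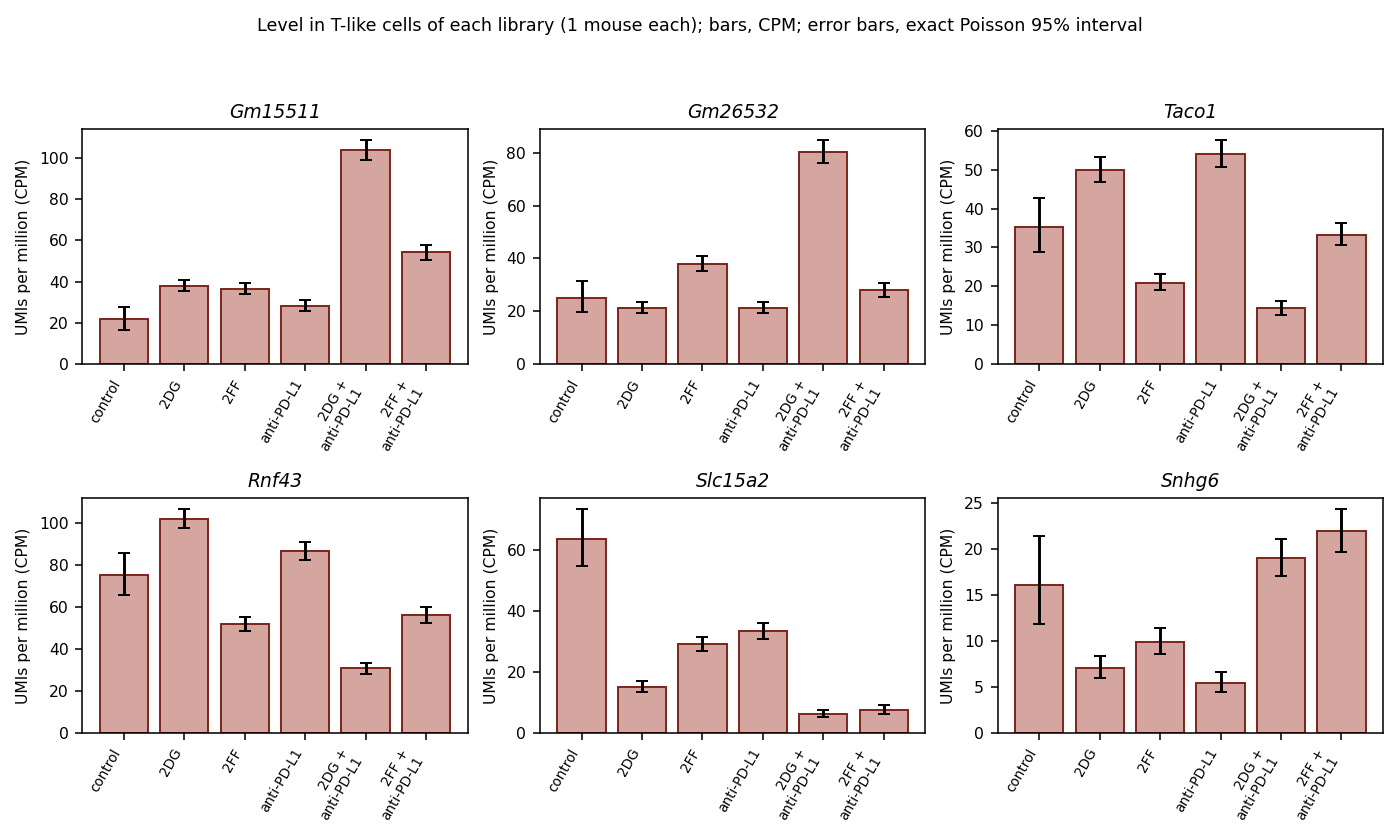
Levels of the 6 genes in T-like cells of the 6 libraries, in CPM on a linear axis from 0; bars are the library's level (1 mouse each) and error bars the exact Poisson 95% interval. Taco1 and Rnf43 had their lowest level with 2DG plus anti-PD-L1 (14.4 and 30.8 CPM), and Gm15511 and Gm26532 their highest (103.8 and 80.5 CPM). Slc15a2 was highest in control (63.7 CPM). Snhg6 was highest in both combinations, with intervals that overlapped that of control.

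Rnf43 was likewise lower with 2DG plus anti-PD-L1 in each class that held enough of its RNA, which were the lymphoid and dendritic classes. T-like levels were 75.3 CPM in control, 102 in 2DG, 51.9 in 2FF, 86.6 in anti-PD-L1, 30.8 in 2DG plus anti-PD-L1 and 56.2 in 2FF plus anti-PD-L1. The lowest level was thus again that of 2DG plus anti-PD-L1, while the control and anti-PD-L1 intervals overlapped, as did those of 2FF and 2FF plus anti-PD-L1. NK-like cells held a higher level of it than T-like cells, at 82.4 CPM with 2DG plus anti-PD-L1 against 142.5 to 169.7 CPM in the other 4 libraries with at least 100 such cells. Monocyte-like cells were at 0.373 to 1.60 CPM in all libraries.

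The Rnf43 log2 ratio with 2DG plus anti-PD-L1 relative to anti-PD-L1 was -1.36 (-1.48 to -1.23) in T-like cells, the seventh lowest. It was -0.999 (-1.29 to -0.71) in NK-like, -1.47 in B-like and -1.05 in dendritic-like cells, 3 of 4 classes past 2-fold with NK-like cells just under it. The T-like ratio minus that of another class was 0.112 (-0.44 to 0.664) for B-like and -0.303 (-0.785 to 0.178) for dendritic-like cells. For NK-like cells, whose ratio was nearer to 0, it was -0.359 (-0.675 to -0.042). Among these classes only the NK-like interval left out 0. The gated non-T ratio of -0.62 sums classes with and without Rnf43, so it moves with the class mix of a library. All 4 classes were lower with 2FF plus anti-PD-L1, from -0.96 in B-like to -0.24 (-0.53 to 0.04) in NK-like cells, and none passed 2-fold.

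Of the 6 neighbouring genes of Rnf43, Tex14, a gene of germ cell bridges 106.9 kb away, was also lower with 2DG plus anti-PD-L1, at -1.24 in T-like and -0.97 in gated non-T cells. Its T-like levels were 125 CPM in the anti-PD-L1 library and 49.97 CPM with 2DG plus anti-PD-L1. On the other side, Supt4a and Mir142hg were both at 0.13. Over all 6 members, 36 neighbours were listed, 3 on each side, and Tex14 was the only 1 past 2-fold in T-like cells, with 0 in gated non-T cells. The levels most like those of Rnf43 were those of Rab11fip4 (r 0.72), Ptpn9 (0.72) and Psd4 (0.70), whose own T-like ratios lay between -0.52 and -0.37.

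Gm26532 was higher with 2DG plus anti-PD-L1 in all 7 classes, by ratios of differing size. T-like levels were 25.0 CPM in control, 21.2 in 2DG, 37.9 in 2FF, 21.3 in anti-PD-L1, 80.5 in 2DG plus anti-PD-L1 and 27.9 in 2FF plus anti-PD-L1. The 2DG plus anti-PD-L1 level stood apart at the top, 2FF came next, and 2FF plus anti-PD-L1 lay above anti-PD-L1 and 2DG. The interval of control overlapped those of all 3. The log2 ratio over anti-PD-L1 was 1.70 (1.57 to 1.84) in T-like cells, the fourth highest of 12239. It was 0.81 in NK-like, 1.18 in B-like, 0.98 in dendritic-like, 2.00 in granulocyte-like, 0.82 in monocyte-like and 1.25 in macrophage-like cells, with every interval above 0 and 4 of 7 classes past 2-fold. Of all genes, 0.335% in T-like, 1.65% in B-like, 3.43% in granulocyte-like and 0.903% in macrophage-like cells were at least 2-fold higher. The 2DG plus anti-PD-L1 library had the highest Gm26532 level in 7 of 7 classes.

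Outside T-like cells, the Gm26532 ratios ran from 0.81 (0.45 to 1.18) in NK-like to 2.00 (1.32 to 2.67) in granulocyte-like cells, and the sum over gated non-T cells gave 1.01 (0.90 to 1.12). The T-like ratio lay 0.69 above that sum. This gap includes the value for which the gene was chosen, and whether the shift was larger in T cells was not tested. NK-like cells started from a higher level, 59.9 CPM in the anti-PD-L1 library and 109 CPM with 2DG plus anti-PD-L1. Within T-like cells the ratio was 1.80 in the CD8 subset, 1.82 in the CD4 subset and 1.24 in Treg-like cells. No common direction was seen with 2FF plus anti-PD-L1: T-like cells were at 0.33 (0.16 to 0.49) and monocyte-like cells at -0.40 (-0.58 to -0.22). Zswim4, the next gene with enough UMIs along the chromosome, lay 1.07 kb from Gm26532. It was at 0.93 in T-like and 0.35 in gated non-T cells. The levels most like those of Gm26532 were those of Mrnip (r 0.81), Kdm6bos (0.77) and Srpr (0.76).

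**Figure D2:**
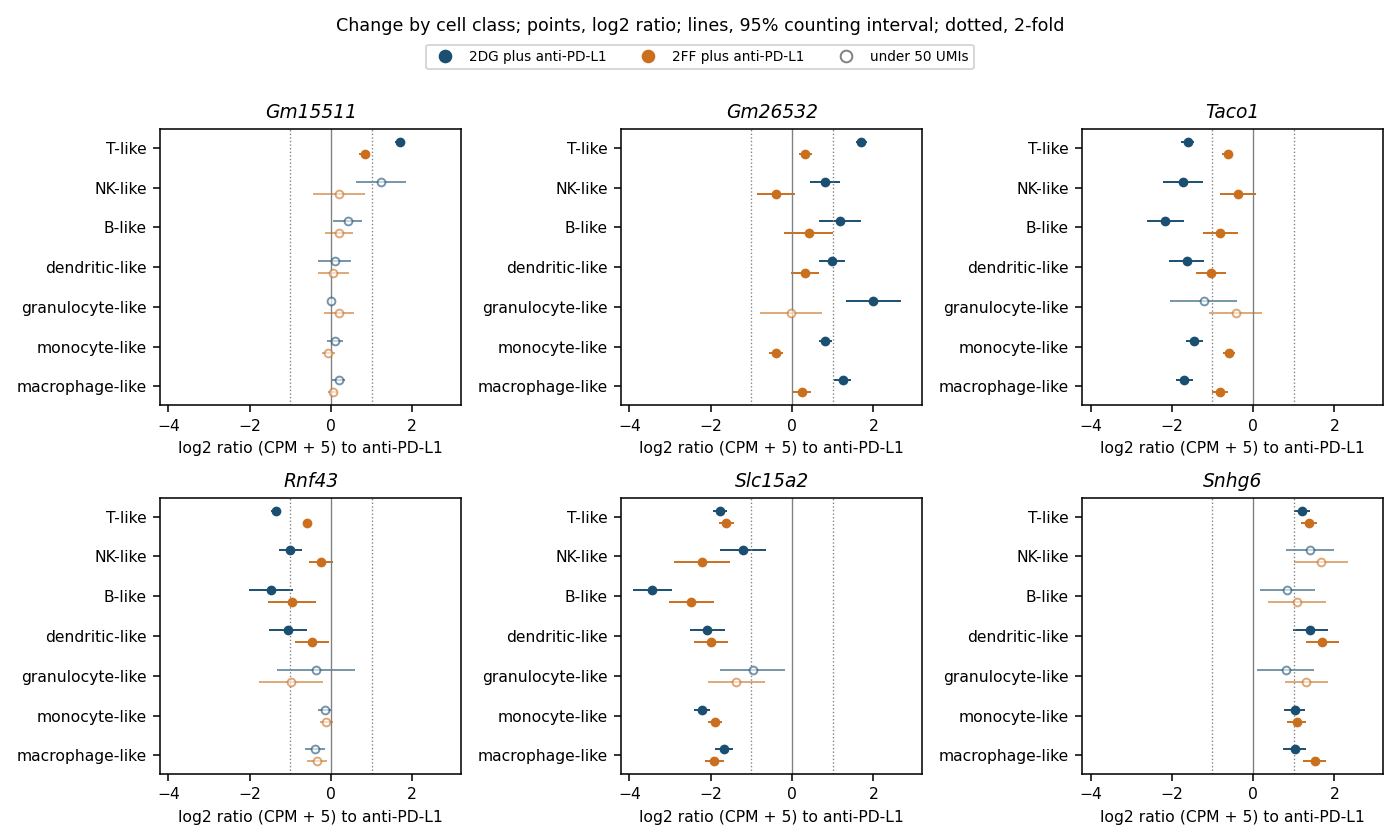
Log2 ratio of CPM plus 5 of each combination library over the anti-PD-L1 library (horizontal axis) in 7 cell classes (rows); filled points have at least 50 UMIs in both libraries together, lines are 95% counting intervals and dotted lines mark 2-fold. Taco1, Rnf43, Slc15a2 and Snhg6 lie on one side of 0 in all 7 classes in both comparisons. Gm15511 leaves 0 mainly in T-like cells, the only class with enough of its UMIs, and the 5 CPM added pulls its ratios elsewhere towards 0.

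Slc15a2 was lower in both combination libraries, in T-like cells and in all other classes with enough UMIs. T-like levels were 63.7 CPM in control, 15.2 in 2DG, 29.1 in 2FF, 33.4 in anti-PD-L1, 6.24 in 2DG plus anti-PD-L1 and 7.50 in 2FF plus anti-PD-L1. Control stood above all others, the 2FF and anti-PD-L1 intervals overlapped, 2DG was lower than these, and both combinations were lowest, with overlapping intervals. The log2 ratio of 2FF plus anti-PD-L1 relative to anti-PD-L1 was -1.62 (-1.81 to -1.44) in T-like cells, the second lowest of 12100 genes. In gated non-T cells, which the choice did not use, it was -1.90 (-2.03 to -1.78), also the second lowest, of 13119. By class it was -2.22 in NK-like, -2.48 in B-like, -1.99 in dendritic-like, -1.89 in monocyte-like and -1.91 in macrophage-like cells, 6 of 6 past 2-fold. The ratio in T-like cells was nearer 0 than that in gated non-T cells, by 0.28 (0.06 to 0.50). The size of this gap depends in part on the CPM added, which pulls ratios at low levels towards 0. With 1 CPM added the ratios were -2.02 in T-like and -2.2 in gated non-T cells. With 20 CPM added they were -0.96 and -1.29. Whether the shift itself differed between these cells was not tested.

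With 2DG plus anti-PD-L1, which did not enter the choice of Slc15a2, the ratio was -1.77 (-1.95 to -1.59) in T-like and -2.01 (-2.14 to -1.88) in gated non-T cells, and 6 of 6 classes were past 2-fold, from -3.44 in B-like to -1.21 in NK-like cells. Both comparisons share the anti-PD-L1 library. Against control, 2DG alone was also lower, by -1.77 in T-like and -1.57 in gated non-T cells, and 2FF alone by -1.01 and -0.47. In B-like cells Slc15a2 went from 85.0 CPM in the anti-PD-L1 library (98 UMIs) to 3.29 CPM (8 UMIs) with 2DG plus anti-PD-L1. The B-like ratio was further from 0 than the T-like one, by 1.67 (1.16 to 2.18) with 2DG plus anti-PD-L1 and by 0.86 (0.27 to 1.45) with 2FF plus anti-PD-L1.

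Levels most like those of Slc15a2 were those of the heat shock gene Hspa1a (r 0.71), of Lrig2 (0.71) and of Dnajb1 (0.71), a cochaperone gene. Hspa1a in T-like cells ran from 302.8 CPM in control over 131 in 2DG, 85.6 in 2FF and 62.7 in anti-PD-L1 to 14.6 with 2DG plus anti-PD-L1 and 48.5 with 2FF plus anti-PD-L1. Dnajb1 ran from 149 CPM in control to 58.0 CPM with 2DG plus anti-PD-L1. Both were thus highest in control and lowest with 2DG plus anti-PD-L1, as Slc15a2 was in T-like cells, and the part of heat shock or handling in the Slc15a2 levels was not tested. The ratio of Hspa1a with 2FF plus anti-PD-L1 relative to anti-PD-L1 was only -0.34 in T-like cells.

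Snhg6 was higher in both combination libraries than in the anti-PD-L1 library, by similar ratios in T-like and other cells. T-like levels were 16.1 CPM in control, 7.07 in 2DG, 9.92 in 2FF, 5.42 in anti-PD-L1, 19.0 in 2DG plus anti-PD-L1 and 21.9 in 2FF plus anti-PD-L1. Control and both combinations formed the upper 3, with overlapping intervals, and the anti-PD-L1 and 2DG libraries were lowest, with overlapping intervals. In CD8 T-like, monocyte-like and macrophage-like cells control had the highest level, at 25.2, 18.2 and 26.7 CPM. For 2FF plus anti-PD-L1 relative to anti-PD-L1 the log2 ratio was 1.37 (1.18 to 1.56) in T-like cells, the seventh highest of 12100, and 1.32 (1.17 to 1.48) in gated non-T cells. Dendritic-like cells were at 1.70, monocyte-like at 1.07 and macrophage-like at 1.51, so 4 of 4 classes with enough UMIs were past 2-fold. The ratio in T-like cells minus that in gated non-T cells was 0.05 (-0.20 to 0.29).

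Snhg6 with 2DG plus anti-PD-L1, which did not enter its choice, was also past 2-fold in 4 of 4 classes, from 1.02 in macrophage-like to 1.41 in dendritic-like cells, with 1.20 (1.01 to 1.40) in T-like cells. The denominator is shared: the anti-PD-L1 library had the lowest Snhg6 level in 5 of 6 classes with at least 50 UMIs. Against control, Snhg6 was lower in T-like cells of the anti-PD-L1, 2DG and 2FF libraries, by -1.02, -0.80 and -0.50. Levels most like its own were those of Ost4 (r 0.86), a subunit of the oligosaccharyltransferase that adds N-glycans, Pabpc1 (0.83), the poly(A)-binding protein gene, and Snrpf (0.82), a spliceosome gene. Ost4 in T-like cells lay at 55.8 CPM in control, 34.6 in 2DG, 52.1 in 2FF, 30.3 in anti-PD-L1, 62.1 in 2DG plus anti-PD-L1 and 67.7 in 2FF plus anti-PD-L1, with its 2 lowest levels in the same libraries as Snhg6.

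**Figure D3:**
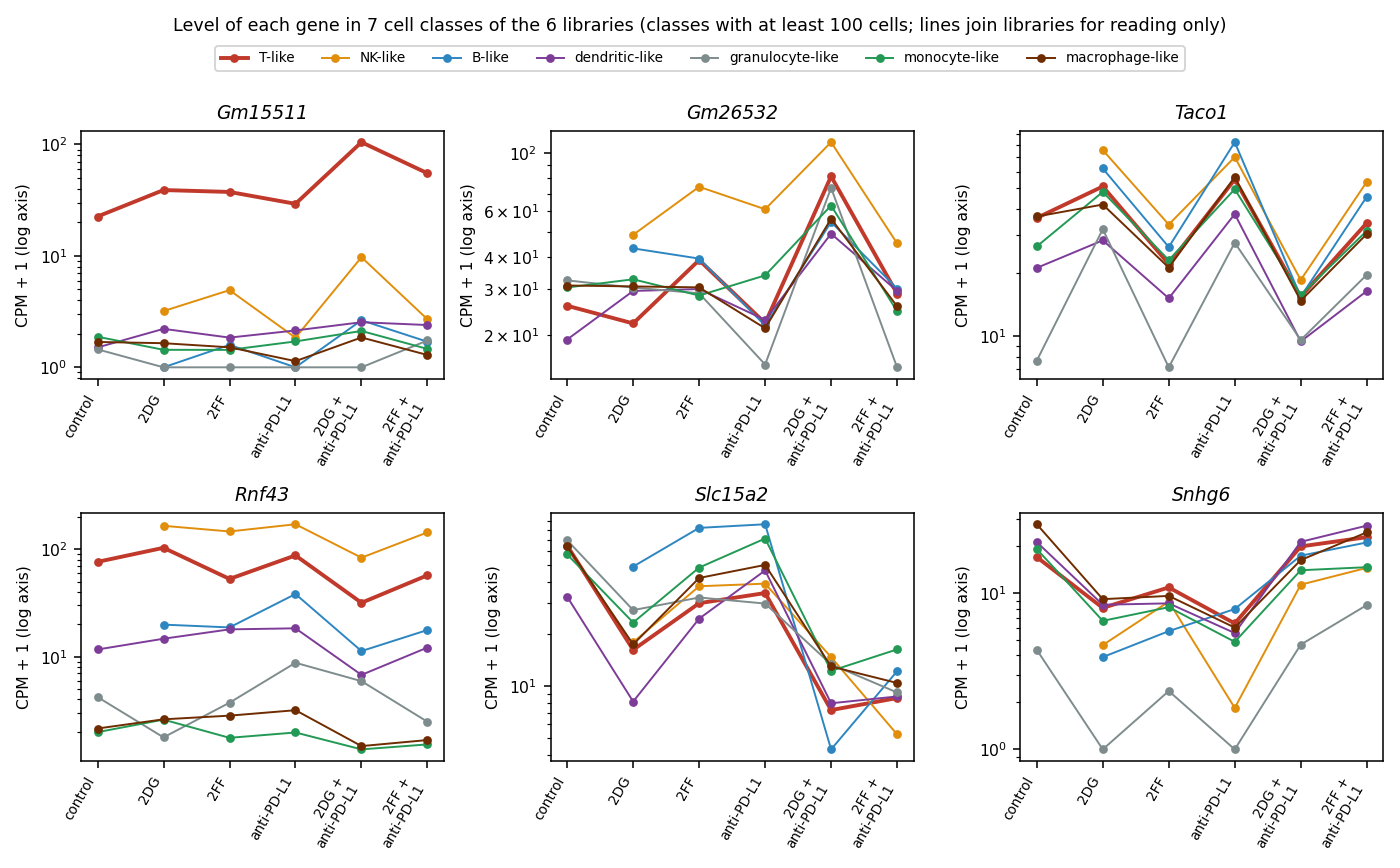
Level of each gene (CPM plus 1, log axis) in 7 cell classes across the 6 libraries, for classes with at least 100 cells; lines join the libraries of one class for reading only. Relative to anti-PD-L1, Taco1 is lower with 2DG plus anti-PD-L1 and Slc15a2 with both combinations in every class drawn (in granulocyte-like cells Taco1 is lower still in control and 2FF), Rnf43 is spread by class, and Gm15511 stays near the floor outside T-like cells.

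Gm15511 was the 1 member whose RNA was found almost wholly in T-like cells. T-like levels were 21.6 CPM in control, 38.0 in 2DG, 36.5 in 2FF, 28.3 in anti-PD-L1, 103.8 in 2DG plus anti-PD-L1 and 54.2 in 2FF plus anti-PD-L1. The 2DG plus anti-PD-L1 level stood above all others, followed by 2FF plus anti-PD-L1, while 2DG and 2FF overlapped, as did anti-PD-L1 and control. A UMI of it was seen in 36.1% of T-like cells with 2DG plus anti-PD-L1 and in 13.6% with anti-PD-L1 (median depths 5730 and 5879 UMIs), against 0.574% and 0.498% of monocyte-like cells (6612 and 6818.5 UMIs). In gated non-T cells it lay at 0.557 to 1.56 CPM in all 6 libraries.

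The Gm15511 log2 ratio with 2DG plus anti-PD-L1 relative to anti-PD-L1 was 1.71 (1.58 to 1.83) in T-like cells, the third highest of 12239, and 0.24 (0.11 to 0.36) in gated non-T cells, whose level was at most 1.56 CPM. T-like cells were the only class of 7 with at least 50 UMIs in both libraries. NK-like cells went from 0.844 CPM on 1 UMI to 8.73 CPM on 16 UMIs, which was 8.41% of the T-like level in the same library. That is under the 20% below which free RNA from other cells may account for a level, so it is not read as a shift. The other non-T classes compared lay lower in that library, at 0 (granulocyte-like) to 1.64 CPM (B-like). The 16 UMIs lay in 7 of 351 NK-like cells, with up to 6 in 1 cell, and their source was not tested. A T-confined change and a change that could not be seen elsewhere for lack of this RNA cannot be told apart in these data.

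Within T-like cells Gm15511 was higher in each subset. In CD8 T-like cells, whose ratios chose it, the levels were 95.1 CPM with 2DG plus anti-PD-L1 and 21.04 CPM with anti-PD-L1. In CD4 T-like cells they were 108.5 and 32.3 CPM, with a log2 ratio of 1.61 (1.30 to 1.91), and in Treg-like cells, the subset with the highest level in all 6 libraries (with overlapping intervals in control and both 2FF libraries), 163.7 and 62.5 CPM, with 1.32 (0.94 to 1.71). With 2FF plus anti-PD-L1 the ratios were 0.96 in the CD8 subset, 0.94 in the CD4 subset and 0.40 (-0.01 to 0.80) in Treg-like cells.

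Rora, on the opposite strand, was measured at 1061 CPM in T-like cells of the anti-PD-L1 library, 1733 CPM with 2DG plus anti-PD-L1 and 1644 CPM with 2FF plus anti-PD-L1. Its ratios were 0.71 and 0.63, smaller than those of Gm15511 in both comparisons (1.71 and 0.83), and the control, 2DG and 2FF libraries lay between 1055 and 1103 CPM. The further neighbours Ice2 and Anxa2 were at -0.08 and 0.13 in T-like cells with 2DG plus anti-PD-L1. The genes most like Gm15511 over classes and libraries were the noncoding Gm12167 (r 0.87) and Gm15638 (0.83) and the tubulin gene Tuba3a (0.82). Gm12167 and Gm15638 had ratios in that comparison of 1.13 and 1.36 in T-like cells and of 0.14 and 0.41 in gated non-T cells. Tuba3a was at 0.46 in T-like and 0.03 in gated non-T cells. It lay near the floor, with 103 UMIs over all points and at most 2.59 CPM in T-like cells.

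**Figure D4:**
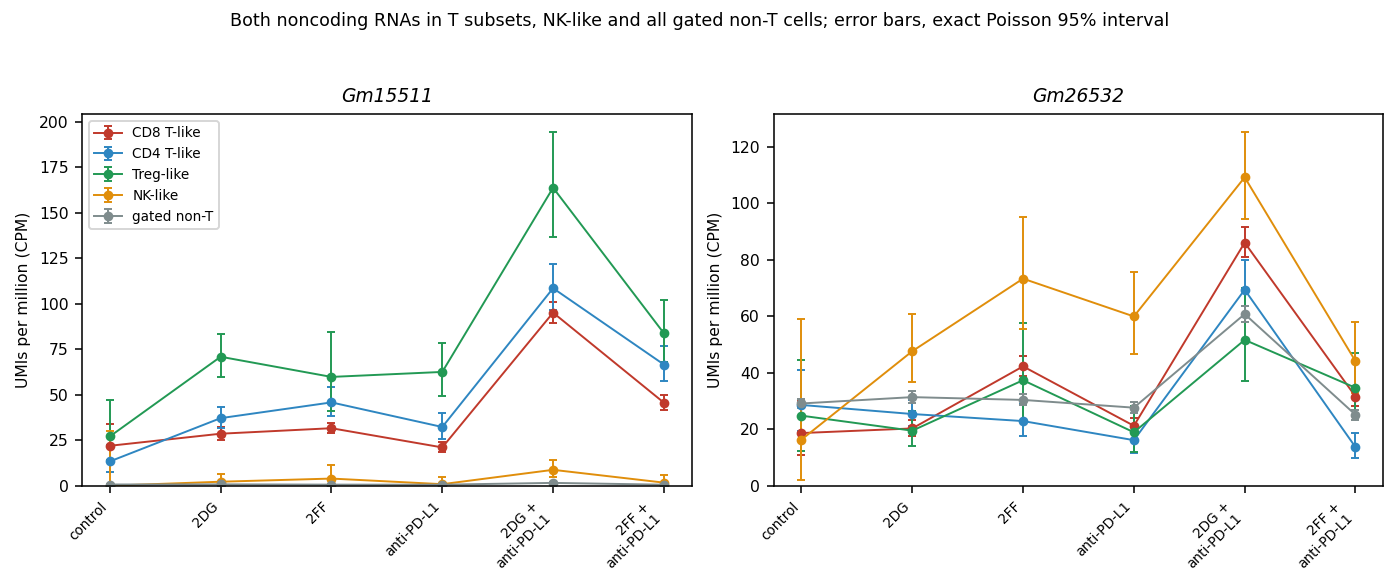
Levels of Gm15511 (left) and Gm26532 (right) in 3 T cell subsets (CD8, CD4 and Treg-like), in NK-like and in gated non-T cells of the 6 libraries, in CPM; error bars are exact Poisson 95% intervals. Gm15511 is near 0 outside T-like cells and reaches 163.7 CPM in Treg-like cells with 2DG plus anti-PD-L1, while Gm26532 peaks in that library in all 5 groups of cells.

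The pathways and RNA classes of the members were described by lists. None of the other 31 measured genes of cytochrome c oxidase and its assembly was past 2-fold in T-like cells with 2DG plus anti-PD-L1 (range -0.40 to 0.64, median 0.05, against -0.06 over all genes), and mt-Co1, whose translation TACO1 activates, was at 0.11. None of 14 measured genes of a list of Wnt receptors, their turnover and downstream signalling was past 2-fold (-0.36 to 0.03, median -0.12, against -0.06). Of these, 13 were below 0 and 1 above, and Znrf3, the paralog of Rnf43, was at -0.18. With 2FF plus anti-PD-L1, the other peptide transporters with enough UMIs, Slc15a3 and Slc15a4, were at -0.14 and -0.21. None of 15 further snoRNA host genes was past 2-fold there (-0.28 to 0.61, median 0.00, against -0.04), nor with 2DG plus anti-PD-L1 (-0.28 to 0.66), and Gas5 was at 0.11 and 0.20. So no gene of these 4 lists but the members was past 2-fold in T-like cells. Of all genes there, 0.335% were at least 2-fold higher and 0.163% lower with 2DG plus anti-PD-L1. With 2FF plus anti-PD-L1 the shares were 0.157% and 0.0744%. Lists this short would hold few or no such genes at these shares, so their absence says little about the pathways. Lrp5, at 2.98 CPM with 2DG plus anti-PD-L1 and 3.56 with anti-PD-L1, could not reach 2-fold with 5 CPM added.

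Of the 20 dissociation and stress genes, 3 were past 2-fold in T-like cells with 2DG plus anti-PD-L1. Hspa1a was at -1.79 and Hspa1b at -1.89, 2 inducible heat shock genes, and Zfp36, which encodes an mRNA-destabilizing protein, was at 1.17. In gated non-T cells the same 3 genes were at -1.51, -2.02 and 1.45. With 2FF plus anti-PD-L1 1 of 20 was past 2-fold, Zfp36 at 1.29 in T-like and 1.71 in gated non-T cells. None of 3 measured nuclear RNAs was past 2-fold in T-like cells in either comparison.

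Genes past 2-fold in each of the 7 classes were few. With 2DG plus anti-PD-L1 they were Zfp36, H2-T23 and Mpp7 (higher) and Hspa1b (lower), and with 2FF plus anti-PD-L1 Ost4, Zfp36 and H2-T23 (higher) and Gm48099 (lower). No member is among them, since only Gm26532 had at least 50 UMIs in all 7 classes, and only with 2DG plus anti-PD-L1. In T-like cells H2-T23, the nonclassical class I gene of Qa-1, lay at 148.5 CPM in control, 83.6 in 2DG, 163 in 2FF, 63.9 in anti-PD-L1, 167 in 2DG plus anti-PD-L1 and 207 in 2FF plus anti-PD-L1. Zfp36 lay at 191, 73.5, 147, 72.9, 171 and 186 CPM in the same order of libraries. Both were lowest in the anti-PD-L1 and 2DG libraries, as Snhg6 was.

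**Figure D5:**
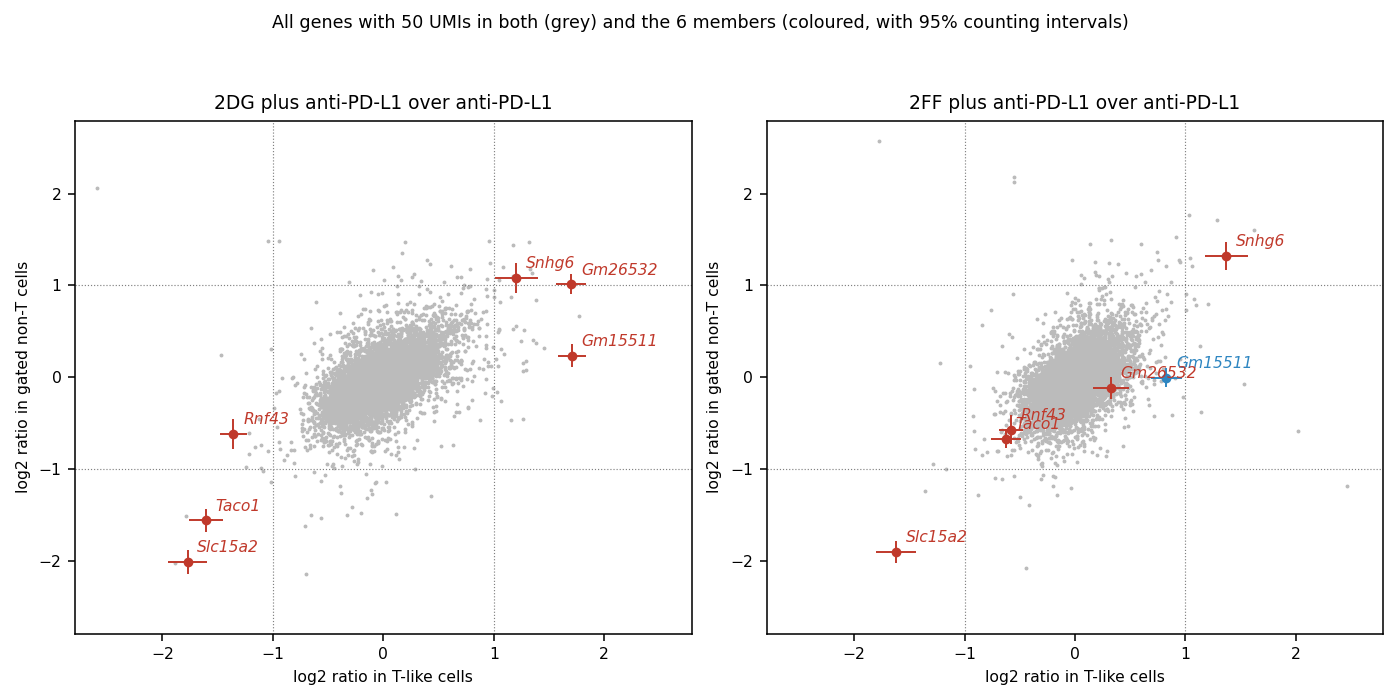
Log2 ratio in T-like cells (horizontal axis) against that in gated non-T cells (vertical axis) for all genes with at least 50 UMIs in both (grey) and for the 6 members with 95% counting intervals (red; blue where gated non-T cells had under 50 UMIs); dotted lines mark 2-fold. With 2DG plus anti-PD-L1 (left), Taco1 and Slc15a2 lie in the corner lower in both, Gm26532 and Snhg6 at or past 2-fold in both, and Gm15511 to the right at 0.24 on the vertical axis.

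Across all genes with enough UMIs in both T-like and gated non-T cells, part of those past 2-fold in one were past it in the other. Of 11540 such genes with 2DG plus anti-PD-L1, 37 were higher in T-like and 34 in gated non-T cells, and 19 and 28 lower. Of 11419 with 2FF plus anti-PD-L1, 16 and 37 were higher, and 6 and 18 lower. The parts shared by both, given below, were far larger than these shares of all genes. These shares depend in part on level, because 5 CPM was added. A gene under 5 CPM in both libraries cannot reach 2-fold in that group of cells, whatever its change. Gm15511 in gated non-T cells is such a gene with 2DG plus anti-PD-L1. How many shifts were truly confined to either group was not tested. With 2DG plus anti-PD-L1, 9 genes were at least 2-fold higher in both, 24.3% of those in T-like and 26.5% of those in gated non-T cells, and 6 were lower in both, 31.6% and 21.4%. With 2FF plus anti-PD-L1, 6 genes were higher in both (37.5% and 16.2%), and 3 were lower in both, of 6 in T-like and 18 in gated non-T cells. Snhg6, Taco1 and Slc15a2 belonged to those shared with 2DG plus anti-PD-L1, and Snhg6 and Slc15a2 to those shared with 2FF plus anti-PD-L1. Gm26532 also did with 2DG plus anti-PD-L1, but at 1.01 in gated non-T cells it was at the limit, and it fell under it with a looser gate (0.99), with at least 1000 genes per cell (0.998) and with 20 CPM added (0.76). In their own comparisons, Taco1 (6 of 6 classes with enough UMIs), Slc15a2 (6 of 6) and Snhg6 (4 of 4) were past 2-fold in each class measured. Rnf43 was past it in 3 of 4 and Gm26532 in 4 of 7. Each of these genes had all its classes on one side of 0. Gm15511 had enough UMIs in T-like cells alone. These counts include T-like cells, which entered the choice of the genes. The shares over all genes given above are for single classes, gated non-T cells or all 7 classes, not for these sets of classes.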

How the data were processed

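Single-cell suspensions of 6 mice, 1 per group, had been made into 10x 3′ v3.1 libraries. What the authors deposited is a matrix of UMI counts for each library, without normalization. The file headers and the study's methods name Cell Ranger 7.0.0 and the mm10 reference, and the submitters' processing notes name Cell Ranger 3.1.0. No doublet caller was run. Samples were grouped by the treatment in the labels. The 6 genes and all lists were chosen with earlier results of these data known.

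Cells with fewer than 250 genes or over 5% mitochondrial UMIs were left out. A cell was given a class if it had UMIs of at least 3 of the 6 markers of 1 of 14 marker lists and at least 2 more than for any other class. T-like cells were split by Cd8a or Cd8b1, Cd4 and Foxp3. Classes with at least 100 cells in each library of both comparisons were compared. UMIs were summed per class and library and given as CPM with exact Poisson 95% intervals. Ratios are log2 of CPM plus 5, with counting intervals by the delta method. Intervals cover counting error only. The ratio code was tested on simulated data. Genes named are the 6 members, the 3 nearest genes with enough UMIs on each side, the 3 genes of highest Pearson correlation of log2(CPM plus 5), centred on the class mean, and list genes past 2-fold. A gene that the rule names is not reported here. Rora, mt-Co1, Znrf3, Gas5, the other SLC15 genes and the genes past 2-fold in each class were named after their values were seen. Of the 32285 gene IDs, 32158 matched GENCODE M21. Promoters were matched by symbol for 4 of 6 members. Python 3.11.15, numpy 2.4.6, scipy 1.17.1 and pandas 2.3.3 were used.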

Additional observations from a re-analysis of the deposited data

Results flagged for a closer look

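Some values went opposite ways between conditions or classes, each with counting intervals that left out 0. With 1 library per group, none of these differences was tested, and the ratios with anti-PD-L1 in T-like cells include those that chose the genes.

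Taco1 was higher with 2DG than in control (log2 ratio 0.45 in T-like and 0.83 in gated non-T cells) and lower with 2DG plus anti-PD-L1 than with anti-PD-L1 (-1.61 and -1.56), so that the 2DG ratio differed by -2.06 in T-like and -2.39 in gated non-T cells. Rnf43 did likewise, with 0.42 and 1.23 without and -1.36 and -0.62 with anti-PD-L1, which are differences of -1.77 and -1.85. The Rnf43 ratio of 2FF in gated non-T cells also turned, from 0.70 to -0.57, a difference of -1.27. The gated non-T sums of both genes move with the class mix, and the control library held 17 NK-like cells. Granulocyte-like cells made up 47.1% of its assigned cells. A Taco1 UMI was seen in 2.30% of these, against 20.1% of control monocyte-like cells.

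Snhg6 turned the other way. Its 2DG ratio was -0.80 without and 1.20 with anti-PD-L1 in T-like cells, a difference of 2.01, and -0.80 and 1.08 in gated non-T cells, a difference of 1.88. Its 2FF ratio was -0.50 and 1.37 in T-like cells, a difference of 1.87, and -0.69 and 1.32 in gated non-T cells, a difference of 2.01. These ratios share the control and anti-PD-L1 libraries. The gated non-T sums of Snhg6 also move with the class mix. Granulocyte-like cells made up 47.1% of the assigned control cells. A Snhg6 UMI was seen in 1.49% of these, against 15.7% of control monocyte-like cells.

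Gm26532 with 2FF plus anti-PD-L1, relative to anti-PD-L1, was higher in T-like cells (0.33) and lower in monocyte-like cells (-0.40), a difference of 0.73.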

How the results depend on the processing

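The ratios of the 6 members in T-like and in gated non-T cells were recomputed under 10 alternatives. Of the 120 values, 120 kept their sign, 114 their side of 2-fold and 91 lay within the counting interval of the reported value. With 1 or 20 CPM added the sign could not change, because the same amount is added to both libraries. T-like ratios were far from 0 by the choice of the genes, so their kept signs say little. With 1 CPM added in place of 5, the T-like values were 1.84 for Gm15511, 1.87 for Gm26532, -1.84 for Taco1, -2.02 for Slc15a2 and 1.84 for Snhg6, and the gated non-T values 0.70 for Gm15511, -1.79 for Taco1, -0.85 for Rnf43, -2.20 for Slc15a2 and 1.87 for Snhg6. With 20 CPM added, the T-like values were 1.36 for Gm15511, 1.28 for Gm26532, -1.11 for Taco1, -1.07 for Rnf43, -0.96 for Slc15a2 and 0.72 for Snhg6, and the gated non-T values 0.067, 0.76, -1.06, -0.31, -1.29 and 0.65 in the same order; low levels are pulled towards 0 by construction. Gm15511 in gated non-T cells was at 0.36 with the looser gate. Slc15a2 in gated non-T cells was at -2.03 with cells weighted equally. Thinned to 1000 UMIs per cell, Gm15511 and Gm26532 were at 1.33 and 1.87 and Snhg6 at 1.78 in T-like cells, and Gm26532 and Rnf43 at 1.16 and -0.15 in gated non-T cells, on fewer UMIs. Numbers of genes past 2-fold in T-like cells stayed within 1.5 times in 39 of 48 cases. With 1 CPM added they were 106 higher and 80 lower for 2DG plus anti-PD-L1 and 50 higher and 58 lower for 2FF plus anti-PD-L1. With 20 CPM added they were 19, 12, 4 and 2 in that order, and with cells weighted equally 12 were higher for 2FF plus anti-PD-L1. No paired analysis was possible because each group has 1 library. Depth limits the granulocyte-like, NK-like and B-like values. Gm15511 outside T-like cells lay at levels that free RNA may give, and their source was not tested.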
